A study of Mus musculus with 6 samples.

Results

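The genes analysed here encode the translation initiation and elongation factors, the proteins that assemble a ribosome on an mRNA and then move it along the coding sequence. Members were the protein-coding genes with a symbol that begins Eif1 to Eif6, Eef1 or Eef2, without the kinase genes named Eif2ak and without Eif4a3, whose product belongs to the exon junction complex. In all, 63 genes matched, and 60 of them had at least 10 reads summed over the 6 libraries, out of 19452 genes that passed this minimum. The 3 genes below it were Eif2s3y, the Y-linked copy of the gene for the eIF2 gamma subunit, with 0 reads, and the eIF4E-related genes Eif4e1b and Eif4e3, with 2 reads each. Another 11 matching symbols belonged to pseudogenes and other gene types and were left out. Members were grouped by complex. By symbol, 47 were Eif genes and 13 were Eef genes, counted below as initiation and elongation factor genes. Both sets include genes whose products bind or modify the factors.

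Poly(A)+ RNA was sequenced from 3T3 cells, a long-established fibroblast line of mouse embryos, in 3 libraries labelled control and 3 labelled triple KD (SAFB KD below), which the series calls biological replicates. SAFB KD cells had received siRNAs against Safb (called Safb1 in the series), Safb2 and Sltm together, whose products are related nuclear RNA-binding proteins, and the study's methods describe a Flp-In derivative of 3T3, transfected a further time on the next day and harvested on the third day. The comparison asked how mRNA levels in these cells differed once all 3 SAFB proteins had been depleted, and each p value below measures only the spread between these 6 libraries of 1 cell line. RNA of the targets fell only in part (Safb 2.02-fold, Safb2 1.56-fold and Sltm 1.62-fold lower, with no overlap between groups), libraries held 33323307 to 53441129 counts, and control 3 lay apart from the other controls on the second component of a principal component analysis (16.3% of the variance).

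Of the cell type markers, all 8 fibroblast genes were detected, and their summed level was 18470 to 20380 CPM (counts scaled to a common library size) in control and 17310 to 17770 CPM in SAFB KD, with 6 of the 8 lower. Of 4 epithelial markers, Epcam and Krt18 had no read and the list summed to at most 0.455 CPM. The 3 endothelial markers summed to 7.89 to 8.32 CPM in control and 9.32 to 10.3 in SAFB KD, with Kdr at 0. The 3 neuronal markers summed to 14.2 to 15.9 CPM in control and 8.92 to 9.13 in SAFB KD, nearly all of it Snap25, with Rbfox3 at 0. The 4 immune markers summed to 3.48 to 4.24 CPM in control and 6.37 to 8.39 in SAFB KD, nearly all of it Cd68, while Ptprc had 4 reads over the 6 libraries. The part of these differences in the results below was not tested.

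Translation starts when eIF2, loaded with GTP and the initiator tRNA, joins the small ribosomal subunit together with eIF1, eIF1A, eIF3 and eIF5. The eIF4F complex, made of the cap-binding protein eIF4E, the scaffold eIF4G and the helicase eIF4A, brings this particle to the capped end of the mRNA, while eIF2B recharges eIF2 with GTP after each round and eIF5B joins the large subunit. During elongation, eEF1A delivers aminoacyl-tRNAs, eEF1B recharges eEF1A, and eEF2 moves the ribosome by a codon. In fibroblasts, as in other dividing cells, these genes are highly expressed, and many of their mRNAs are known for translation that follows mTOR activity.

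Most translation factor genes were slightly higher in SAFB KD. By the quasi-likelihood test of edgeR, with Benjamini-Hochberg adjustment over all 19452 genes, 43 of the 60 members (71.7%) were higher and 3 (5.0%) were lower at an adjusted p under 0.05, beside 21.4% higher and 20.1% lower among all genes tested (41.5% in either direction). The median log2 fold change of the members was 0.18, that is 1.14-fold (the range was -0.74 to 0.96), against 0.01 for all genes tested. Since members are mostly abundant, the 56 with a mean of at least 10 CPM were also set beside the 8901 protein-coding genes above the same level, a comparison chosen after the values were seen. Of these members 43 (76.8%) were higher and 3 (5.36%) lower, and of these coding genes 35.9% were higher and 29.9% lower, with medians of 0.18 and 0.02. The SAFB KD libraries lay above all controls in 41 members, where 25.3% of all genes did so, and below all controls in 5, where 23.7% did so (49.0% of all genes for either direction). At 10 CPM or more, they lay above in 41 and below in 4 of the 56 members. Of the 8901 coding genes they did so in 3432 and 2876. Groups without overlap were thus common among abundant coding genes as well, in both directions. In bulk RNA a difference in cell composition and one in the RNA of each cell cannot be told apart.

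**Figure D1:**
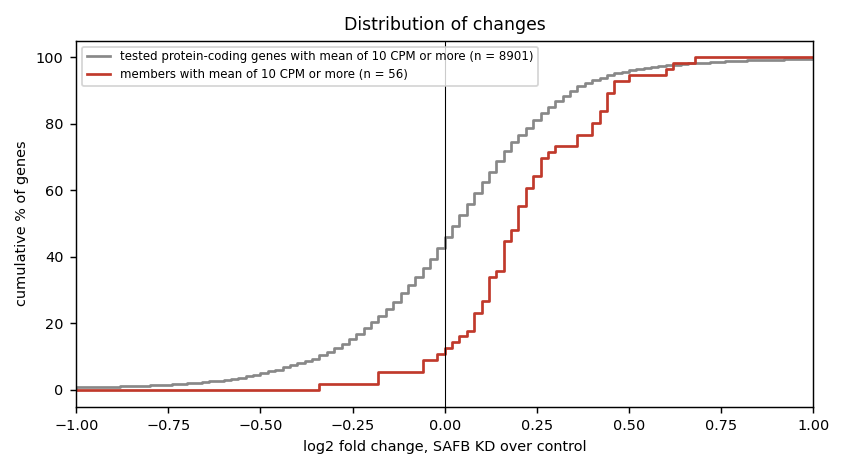
Cumulative percentage of genes (y axis) up to each log2 ratio of SAFB KD to control (x axis), for the 56 translation factor genes (red) and the 8901 tested protein-coding genes (grey) with a mean of at least 10 CPM. Over most of its range the red curve runs to the right of the grey one, with medians of 0.18 and 0.02.

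The changes were small. No member passed a test for a change beyond 2-fold (edgeR glmTreat, 0 at an adjusted p under 0.05, where 1.22% of all genes passed), with 0 at an unadjusted p under 0.05 and 0 by DESeq2 and by limma-voom. At a share of 1.22%, few or none of 60 genes would pass, so this does not set the members apart. In all, 16 of the 60 members were called with a log2 fold change of at least 0.3 in size. So were 4306 of the 19452 genes tested and 2282 of the 8901 coding genes at 10 CPM or more. The share of the members was thus near that of these coding genes. The median deviation of the members from the control mean was between -0.0039 and 0.0036 on the log2 scale in the controls and was 0.16, 0.20 and 0.19 in SAFB KD 1 to 3. Initiation factor genes were higher in 35 of 47 cases and lower in 3 (median 0.20), and elongation factor genes were higher in 8 of 13 and lower in 0 (median 0.16).

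**Figure D2:**
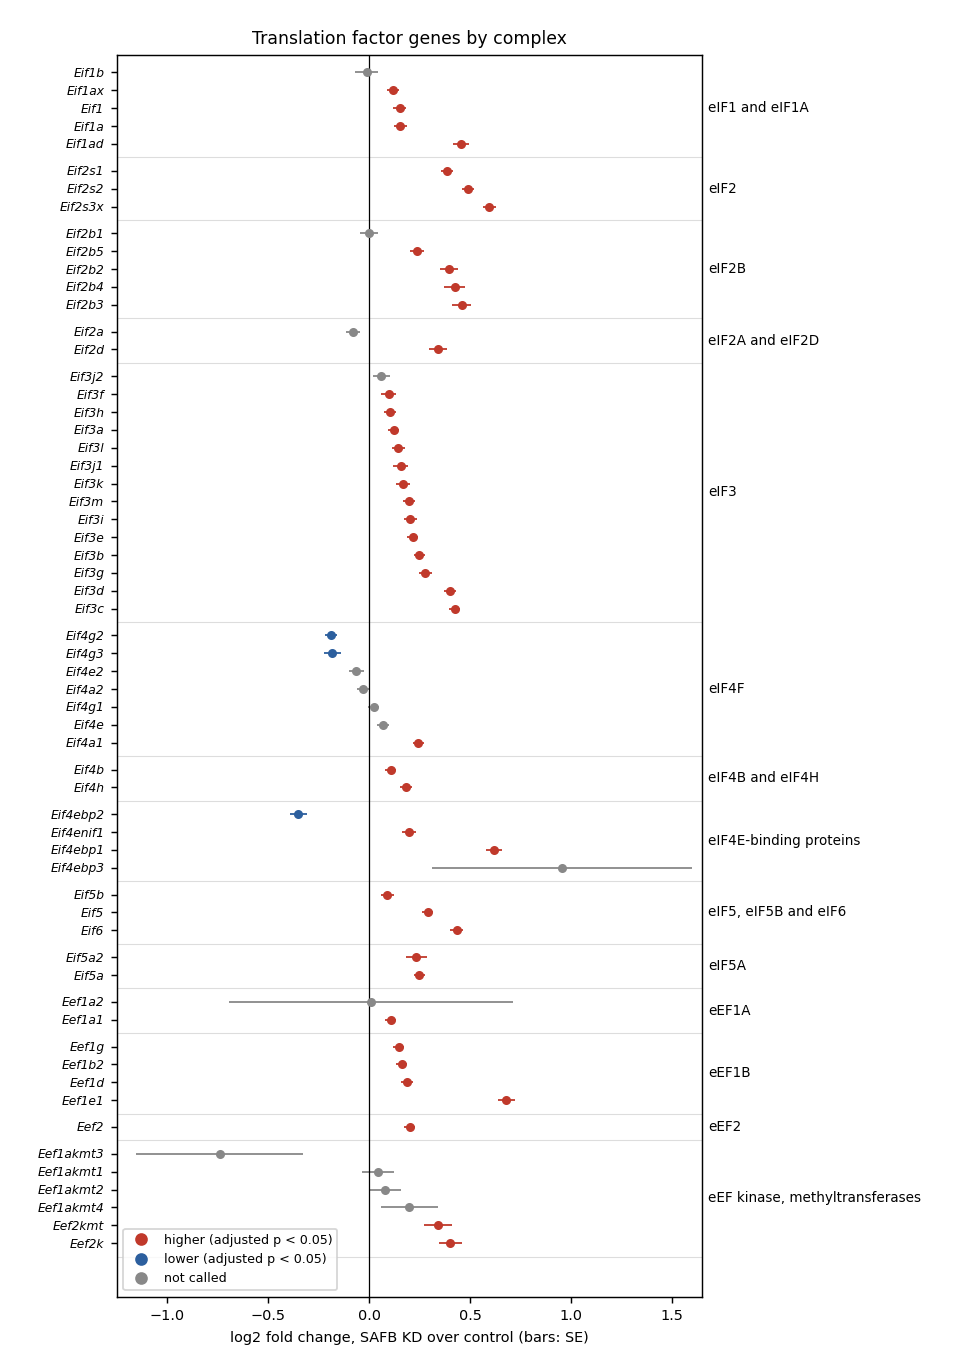
Log2 ratio of SAFB KD to control (x axis) for each of the 60 translation factor genes (y axis), ordered by complex. Points are edgeR estimates with an approximate SE (bars), red for the 43 genes called higher, blue for the 3 called lower and grey for the 14 not called. All 3 eIF2 genes lie at 0.39 or above, and the genes grouped under eIF4F lie on both sides of 0.

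Short sequence motifs were described in the members next to all tested protein-coding genes, with no test, since SAFB proteins are known to bind purine-rich RNA and promoter motifs are shared by many housekeeping genes. The motif GAAGAA, counted on the sense strand with overlaps in the longest annotated coding sequence, had a median density of 1.25 per kb in the members and 0.958 per kb in the coding genes. It was absent from 16 of the 60 members. Its density was highest in Eif2s2 (11.0 per kb), Eif3j1 (8.91), Eif3j2 (8.84), Eif5b (8.22) and Eif3a (5.45), and across the 60 members density and log2 fold change had a Spearman correlation of 0.01 (0.04 across 13478 coding genes). These windows hold the densest stretch in the member with the highest density, in the member with the highest CPM among those that fell, and in an eIF3 gene that rose. GAAGAA is in capitals, and positions count from the first base of the coding sequence.
Eif2s2, bases 33 to 62: tatgagcaaaaagaaaaaGAAGAAGAAGAA
Eif4g2, bases 2683 to 2712: actgctGAAGAAGAAGAAtcagagGAAGAA
Eif3c, bases 570 to 599: agtcggtaatacgactttcttGAAGAAGAA
These windows were chosen with the direction of change known, and only coding sequence was searched. They show where the letters lie, and a relation of the motif to the changes was not tested.

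RefSeq promoter windows (GRCm38.p6, from 250 bases before to 50 after an annotated start) were given for 46 of the 60 members, and genes with several starts had several windows. Both strands were searched for 6 motifs. The E-box CACGTG, a palindrome bound by MYC and USF proteins, was present in 13 of the 46 members (28.3%) and in 11.3% of 10486 coding genes, and CCGGAA, the core of sites for ETS factors, was present in 22 (47.8%) and 30.2%. The NRF1 motif GCGCATGC was found in 5 (10.9%) and 5.71%, the YY1 motif AAGATGGC in 5 (10.9%) and 5.06%, TATAAA in 4 (8.70%) and 9.22%, and the CRE TGACGTCA, which shares the letters ACGT with the E-box, in 1 (2.17%) and 3.46%. Of the 34 members called higher that had a window, 9 held the E-box and 16 held CCGGAA. Of the 12 among them with a log2 fold change above 0.3, 1 held the E-box and 7 held CCGGAA. The E-box was also in 4 members not called higher (Eef1akmt4, Eif1b, Eif4e and Eif4g1). CCGGAA was also in Eif1b, Eif2b1, Eif4a2 and Eif4e2, which were not called, and in Eif4ebp2 and Eif4g3, which were lower. The lines below show E-box windows of members named later, an NRF1 window of Eif2s1, whose promoter also held TATAAA, and YY1 windows of Eif2s3x and Eef1e1, with the motif in capitals.
Eef2, E-box, chr10:81176576-81176605, plus strand: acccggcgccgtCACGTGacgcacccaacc
Eif4a1, E-box, chr11:69672595-69672624, minus strand: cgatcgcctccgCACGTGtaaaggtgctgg
Eif5a, E-box, chr11:69920791-69920820, minus strand: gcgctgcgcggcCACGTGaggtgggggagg
Eif4g1, E-box, chr16:20672661-20672690, plus strand: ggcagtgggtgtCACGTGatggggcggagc
Eif2s1, NRF1, chr12:78862039-78862068, plus strand: gaggtggctccGCATGCGCgctgggttggg
Eif2s3x, YY1, chrX:94212618-94212647, minus strand: tctctccgagcAAGATGGCtgggggtgagg
Eef1e1, YY1, chr13:38658979-38659008, minus strand: gagctgggccagAAGATGGCggcggccgcg
A match says only that these letters are in the window. The YY1 letters began after the annotated start in Eif2s3x (15 bases), Eef1e1 (32), Eif3f (14) and Eif4e (26), and before it in Eif4a1 (-166). A run of at least 5 pyrimidines from the annotated start was present in 3 of 46 members (Eef1a1, Eif2s3x and Eif3f, 6.52%) and in 5.06% of coding genes. Its first base could be C or T, and the longest run was taken where a gene had several starts. Annotated starts need not be the starts used in these cells, so this is not a count of mRNAs under mTOR control.

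Among the complexes with several genes, eIF2 had the highest median change. All 3 were higher, with a median log2 fold change of 0.49 (1.40-fold). Counts for this and the other complexes are small. They are to be read against 35.9% higher and 29.9% lower among coding genes at 10 CPM or more. Eif2s1 (ENSMUSG00000021116, chromosome 12, 78861819 to 78887010, plus strand), which encodes the alpha subunit that stress kinases phosphorylate, had 206, 214 and 219.8 CPM in control 1 to 3 and 277, 278 and 279 CPM in SAFB KD 1 to 3. Eif2s2 (ENSMUSG00000074656, chromosome 2, 154871410 to 154892935, minus strand), for the beta subunit, had 424, 427 and 449.6 CPM in control 1 to 3 and 618, 599.8 and 608 CPM in SAFB KD 1 to 3. Eif2s3x (ENSMUSG00000035150, chromosome X, 94188707 to 94212862, minus strand), for the gamma subunit that holds GTP and the initiator tRNA, had 127, 124 and 128 CPM in control 1 to 3 and 195, 194 and 183 CPM in SAFB KD 1 to 3. In each of the 3 genes every SAFB KD library was above every control library, and the spread within a group was small against the gap. By the edgeR quasi-likelihood test, Eif2s1 was 1.31-fold higher (log2 fold change 0.39, SE 0.031, adjusted p = 1.37e-13), Eif2s2 1.40-fold (log2 fold change 0.49, SE 0.030, adjusted p = 4.36e-17) and Eif2s3x 1.51-fold (log2 fold change 0.60, SE 0.033, adjusted p = 2.02e-18). Per length, the mean control levels were 64.2 RPKM for Eif2s2, 43.0 for Eif2s1 and 33.1 for Eif2s3x, and in SAFB KD 90.1, 56.2 and 50.1, in the same order. A processed pseudogene at least 98% identical covers 39.0% of the Eif2s2 transcript (Gm9892) and 37.0% of that of Eif2s3x (Gm2223), and reads that fit both copies equally well are not counted. These copies were themselves at 3.91 and 2.19 CPM in control and were higher by 0.49 and 0.40 on the log2 scale (adjusted p = 0.000994 and 0.0439 by the edgeR quasi-likelihood test).

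Of the 5 genes for eIF2B, the exchange factor that recharges eIF2 and that phosphorylated eIF2 blocks, 4 rose (median 0.39). Eif2b3 (ENSMUSG00000028683, chromosome 4, 117019402 to 117087306, plus strand) encodes a subunit of the catalytic part and had 34.0, 35.3 and 36.8 CPM in control 1 to 3 and 48.7, 49.0 and 47.8 CPM in SAFB KD 1 to 3. The other catalytic gene, Eif2b5, had 104, 109 and 108 CPM in control 1 to 3 and 133, 123 and 124 CPM in SAFB KD 1 to 3. Both were above control in every SAFB KD library, and the edgeR quasi-likelihood test gave log2 fold change 0.46, SE 0.046, adjusted p = 5.28e-11 for Eif2b3 and log2 fold change 0.24, SE 0.035, adjusted p = 3.02e-07 for Eif2b5. Eif2b2 (ENSMUSG00000004788, chromosome 12, 85219481 to 85226628, plus strand) and Eif2b4 (ENSMUSG00000029145, chromosome 5, 31187558 to 31193430, minus strand) encode regulatory subunits. Eif2b2 had 49.4, 51.0 and 47.1 CPM in control 1 to 3 and 65.5, 60.4 and 68.0 CPM in SAFB KD 1 to 3. Eif2b4 had 25.0, 24.2 and 23.2 CPM in control 1 to 3 and 30.7, 33.1 and 33.3 CPM in SAFB KD 1 to 3. Neither overlapped between the groups (log2 fold change 0.39, SE 0.044, adjusted p = 9.03e-10 and log2 fold change 0.42, SE 0.054, adjusted p = 1.64e-08, edgeR quasi-likelihood test). The remaining regulatory gene, Eif2b1, had 43.6, 47.4 and 45.2 CPM in control 1 to 3 and 46.7, 46.2 and 43.5 CPM in SAFB KD 1 to 3. Its groups overlapped and it was not called (log2 fold change 0.00, SE 0.045, adjusted p = 0.994, edgeR quasi-likelihood test), while the difference between Eif2b1 and the other eIF2B genes was not tested. Eif5, which encodes the factor that triggers GTP hydrolysis by eIF2 on the scanning particle, had 404, 400.1 and 405 CPM in control 1 to 3 and 506, 482 and 489 CPM in SAFB KD 1 to 3 and was also higher with no overlap (log2 fold change 0.29, SE 0.029, adjusted p = 7.22e-11, edgeR quasi-likelihood test).

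**Figure D3:**
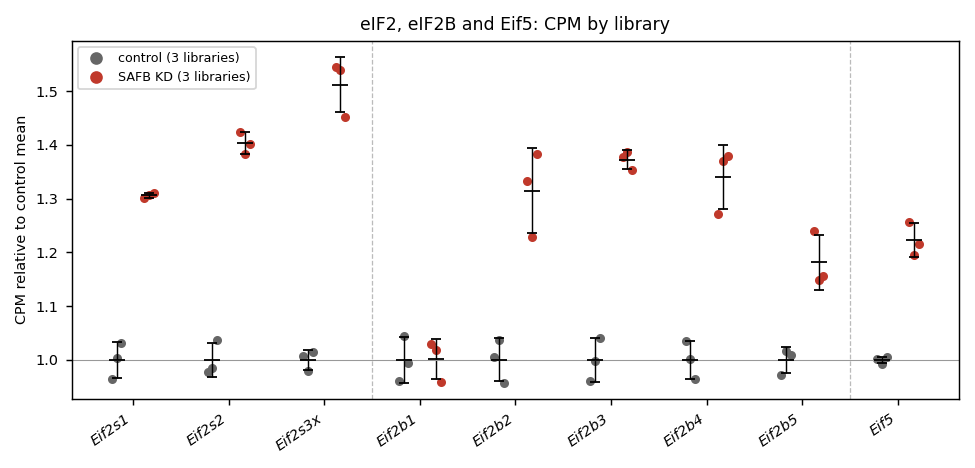
CPM relative to the control mean (y axis) of the genes for eIF2, eIF2B and eIF5 (x axis, separated by dashed lines) in the 3 libraries of control (grey points) and of SAFB KD (red points), with each group's mean and SD. SAFB KD libraries lie above all controls for each gene except Eif2b1.

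The genes named eIF2A and eIF2D encode single proteins that can bring initiator or other tRNAs to the ribosome without eIF2. Eif2d (ENSMUSG00000026427, chromosome 1, 131153181 to 131187658, plus strand) had 49.0, 46.3 and 42.8 CPM in control 1 to 3 and 59.0, 58.2 and 58.4 CPM in SAFB KD 1 to 3 and rose with no overlap (log2 fold change 0.34, SE 0.044, adjusted p = 2.3e-08, edgeR quasi-likelihood test). Eif2a had 136 ± 3.67 CPM in control and 128 ± 5.68 CPM in SAFB KD (SD, n = 3) and was not called (log2 fold change -0.08, SE 0.035, adjusted p = 0.0638, edgeR quasi-likelihood test), with groups that overlapped. Under 5 of the 13 alternative analyses, among them those without control 1 and without SAFB KD 3, it was called lower, with adjusted p from 0.0103 to 0.0401 in those fits.

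Of the 5 genes in the group of eIF1 and eIF1A, which keep the scanning ribosome open until a start codon is found, 4 rose (median 0.15). Eif1ad (ENSMUSG00000024841, chromosome 19, 5366741 to 5371526, plus strand), whose product carries an eIF1A-like domain and is not an established initiation factor, rose most and had 51.5, 52.5 and 52.9 CPM in control 1 to 3 and 72.0, 72.3 and 70.5 CPM in SAFB KD 1 to 3. It did not overlap between the groups (log2 fold change 0.45, SE 0.038, adjusted p = 7.26e-13, edgeR quasi-likelihood test). Eif1 had 425, 409 and 389.8 CPM in control 1 to 3 and 456, 448 and 456 CPM in SAFB KD 1 to 3 and was higher by 0.15 on the log2 scale. Its paralogue Eif1b had 24.6, 25.0 and 26.5 CPM in control 1 to 3 and 24.3, 24.2 and 26.7 CPM in SAFB KD 1 to 3, with overlap and no call (log2 fold change -0.01, SE 0.057, adjusted p = 0.905, edgeR quasi-likelihood test). The ratio of Eif1b to Eif1 differed by -0.17 on the log2 scale between the groups (exact permutation test over 6 libraries, two-sided, p = 0.2). The smallest p that this test can give with 3 against 3 libraries is 0.1, so it cannot reach 0.05. The eIF1A genes Eif1a and Eif1ax both rose with no overlap. Eif1a had 215, 229 and 243 CPM in control 1 to 3 and 253, 252 and 259 CPM in SAFB KD 1 to 3 (log2 fold change 0.15, SE 0.034, adjusted p = 0.000204, edgeR quasi-likelihood test). Eif1ax had 226, 235 and 227 CPM in control 1 to 3 and 246, 248 and 252 CPM in SAFB KD 1 to 3 (log2 fold change 0.12, SE 0.030, adjusted p = 0.00157, edgeR quasi-likelihood test). Their ratio moved by 0.04 (exact permutation test, p = 0.4).

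eIF3, the largest initiation factor, holds the small subunit, eIF4G and the mRNA together. Of its 14 genes 13 were higher (92.9%), beside 35.9% of coding genes at 10 CPM or more. In 12 the groups did not overlap, with SAFB KD above, as in 3432 of those 8901 coding genes. The median log2 fold change was 0.18, with a range of 0.06 to 0.42. Eif3c and Eif3d stood highest. Eif3c (ENSMUSG00000030738, chromosome 7, 126546455 to 126566411, minus strand), for a subunit of the core that contacts eIF1 and eIF5, had 362, 356 and 362 CPM in control 1 to 3 and 488, 481 and 480.5 CPM in SAFB KD 1 to 3. Eif3d (ENSMUSG00000016554, chromosome 15, 77958998 to 77970813, minus strand), whose product can itself bind the cap on some mRNAs, had 278, 279 and 264 CPM in control 1 to 3 and 357, 372 and 356 CPM in SAFB KD 1 to 3. Both lay above control in every SAFB KD library and rose by 1.34-fold and 1.32-fold (log2 fold change 0.42, SE 0.029, adjusted p = 1.14e-15 and log2 fold change 0.40, SE 0.031, adjusted p = 5.4e-14, edgeR quasi-likelihood test). Of the genes for the core shared with yeast, Eif3a rose by 0.12 on the log2 scale, Eif3b by 0.25, Eif3g by 0.28 and Eif3i by 0.20. The others of the mammalian body were Eif3e (0.22), Eif3m (0.20), Eif3k (0.17), Eif3l (0.14), Eif3h (0.10) and Eif3f (0.10).

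Eif3f was the least secure of these calls. It had 124, 115 and 111 CPM in control 1 to 3 and 128, 123 and 125 CPM in SAFB KD 1 to 3, so control 1 reached into the SAFB KD range (adjusted p = 0.0281 by the edgeR quasi-likelihood test). Without control 3 its log2 fold change was 0.05 (adjusted p = 0.335), and it also lost the call without control 2, SAFB KD 1 or SAFB KD 3, where adjusted p ranged from 0.0632 to 0.196, and with both DESeq2-based alternatives (0.0514 and 0.0827). The loosely bound subunit eIF3j is made from a pair of genes. Eif3j1 had 59.2, 62.2 and 64.9 CPM in control 1 to 3 and 69.3, 68.3 and 69.6 CPM in SAFB KD 1 to 3 and rose (log2 fold change 0.16, SE 0.039, adjusted p = 0.0012, edgeR quasi-likelihood test), while Eif3j2 had 45.4, 45.6 and 44.6 CPM in control 1 to 3 and 44.8, 48.5 and 48.0 CPM in SAFB KD 1 to 3 and was not called (log2 fold change 0.06, SE 0.044, adjusted p = 0.293). Their ratio moved by -0.10 (exact permutation test, p = 0.3). The Eif3j2 transcript is covered to 100% by sequence at least 98% identical to Eif3j1, so only reads that distinguish the copies entered either count and both values are uncertain. Eif3m was covered to 87.7% by a pseudogene, Gm7658, that was itself at 6.08 CPM in control and 7.40 in SAFB KD.

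Genes grouped under the cap-binding complex eIF4F were split. Of 7 genes, 1 was higher (14.3%), 2 were lower (28.6%) and 4 were not called, with a median log2 fold change of -0.03. Of coding genes at 10 CPM or more, 35.9% were higher and 29.9% lower. The share that was lower was thus near that of these coding genes. Eif4g2 and Eif4e2 among them encode relatives of the eIF4F subunits. Of the others, Eif4a1 was higher, Eif4g3 was lower, and Eif4e, Eif4a2 and Eif4g1 were not called. Eif4a1, for the main helicase subunit, had 976, 984 and 1006 CPM in control 1 to 3 and 1181, 1146 and 1183 CPM in SAFB KD 1 to 3 and rose with no overlap (log2 fold change 0.24, SE 0.028, adjusted p = 1.32e-09, edgeR quasi-likelihood test). Its paralogue Eif4a2 had 482, 491 and 497 CPM in control 1 to 3 and 452, 494 and 495 CPM in SAFB KD 1 to 3, with overlap and no call (log2 fold change -0.03, SE 0.032, adjusted p = 0.517). The ratio of Eif4a2 to Eif4a1 in CPM went from 0.494, 0.499 and 0.494 in control 1 to 3 to 0.383, 0.431 and 0.419 in SAFB KD 1 to 3, a log2 difference of -0.27 with no overlap (exact permutation test, p = 0.1, the smallest possible). Sequence at least 98% identical to the pseudogene Eif4a-ps4 makes up 68.7% of the Eif4a1 transcript, and that copy went from 10.1 to 11.8 CPM.

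None of the 3 scaffold genes was called higher. Eif4g1, the main scaffold gene, had 933, 943 and 949.8 CPM in control 1 to 3 and 985, 937 and 947 CPM in SAFB KD 1 to 3 and was not called (log2 fold change 0.02, SE 0.028, adjusted p = 0.593, edgeR quasi-likelihood test). Eif4g3, whose product can replace it, had 59.5, 60.3 and 58.6 CPM in control 1 to 3 and 53.9, 52.2 and 51.4 CPM in SAFB KD 1 to 3 and fell with no overlap (log2 fold change -0.18, SE 0.040, adjusted p = 0.000243). Eif4g2, which encodes the related protein DAP5 that lacks the site for eIF4E, had 1218, 1211 and 1209 CPM in control 1 to 3 and 1102, 1036 and 1052 CPM in SAFB KD 1 to 3 and was 1.14-fold lower with no overlap (log2 fold change -0.19, SE 0.028, adjusted p = 4.39e-07, edgeR quasi-likelihood test). The log2 ratio of Eif4g3 to Eif4g1 moved by -0.20 without overlap (exact permutation test, p = 0.1). Among the cap-binding genes, Eif4e had 212, 215 and 219.7 CPM in control 1 to 3 and 222, 230.3 and 226 CPM in SAFB KD 1 to 3, every SAFB KD library above the controls, yet it was not called (log2 fold change 0.07, SE 0.030, adjusted p = 0.0634, edgeR quasi-likelihood test), and limma-voom alone called it (0.07, adjusted p = 0.0378). Eif4e2, for a cap-binding protein that represses its mRNAs, had 72.4, 74.5 and 72.2 CPM in control 1 to 3 and 67.6, 71.2 and 70.8 CPM in SAFB KD 1 to 3, all SAFB KD libraries below the controls, and no call (log2 fold change -0.06, SE 0.037, adjusted p = 0.183). Their log2 ratio moved by -0.13 (exact permutation test, p = 0.1). Eif4b and Eif4h, for helpers of the helicase, both rose, by 0.11 and 0.18.

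The eIF4E-binding protein genes moved in opposite directions. These proteins block eIF4E from eIF4G until mTOR phosphorylates them. Eif4ebp1 (ENSMUSG00000031490, chromosome 8, 27260329 to 27276674, plus strand) had 56.2, 52.0 and 55.2 CPM in control 1 to 3 and 79.2, 84.7 and 86.5 CPM in SAFB KD 1 to 3. Eif4ebp2 (ENSMUSG00000020091, chromosome 10, 61428491 to 61452661, minus strand) had 126, 116 and 109 CPM in control 1 to 3 and 97.7, 89.0 and 89.4 CPM in SAFB KD 1 to 3. Both were separate between the groups, Eif4ebp1 1.53-fold higher (log2 fold change 0.62, SE 0.040, adjusted p = 4.26e-16) and Eif4ebp2 1.28-fold lower (log2 fold change -0.35, SE 0.041, adjusted p = 2.61e-09, edgeR quasi-likelihood test). Eif4ebp2 was thus the largest fall among the members called. The ratio of Eif4ebp2 to Eif4ebp1 in CPM went from 2.24, 2.24 and 1.97 in control 1 to 3 to 1.23, 1.05 and 1.03 in SAFB KD 1 to 3, a log2 difference of -0.96 with no overlap (exact permutation test, p = 0.1). Per length, Eif4ebp1 was at 24.8 RPKM in control and 38.0 in SAFB KD, and Eif4ebp2 at 20.2 and 15.9. Eif4ebp3 had 42 reads over all 6 libraries and no call (log2 fold change 0.96, SE 0.64, adjusted p = 0.255), with 67.7% of its transcript covered by another annotated gene. Eif4enif1, for the protein that carries eIF4E into the nucleus and represses bound mRNAs, rose by 0.20 (adjusted p = 5.72e-06, edgeR quasi-likelihood test).

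**Figure D4:**
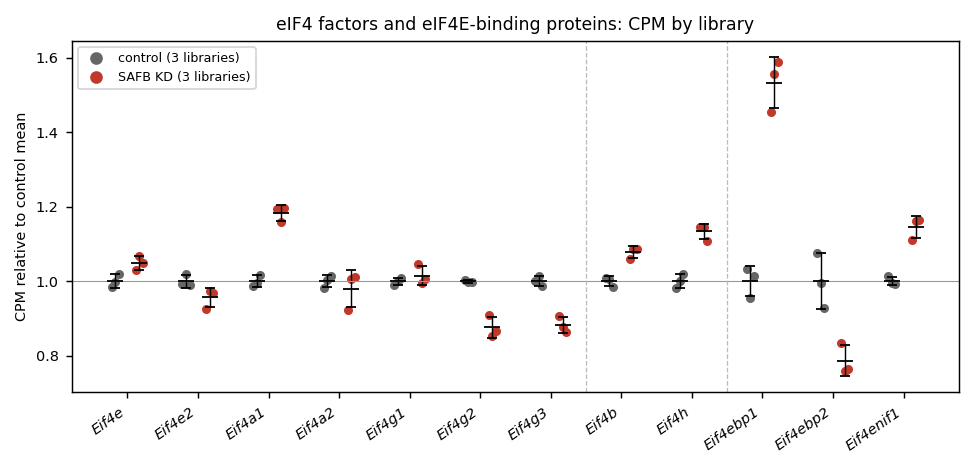
CPM relative to the control mean (y axis) of the genes grouped under eIF4F, Eif4b and Eif4h, and the eIF4E-binding protein genes (x axis, separated by dashed lines) in the 3 libraries of control (grey points) and of SAFB KD (red points), with each group's mean and SD. Eif4ebp1 lies above and Eif4ebp2, Eif4g2 and Eif4g3 lie below control in all SAFB KD libraries.

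**Figure D5:**
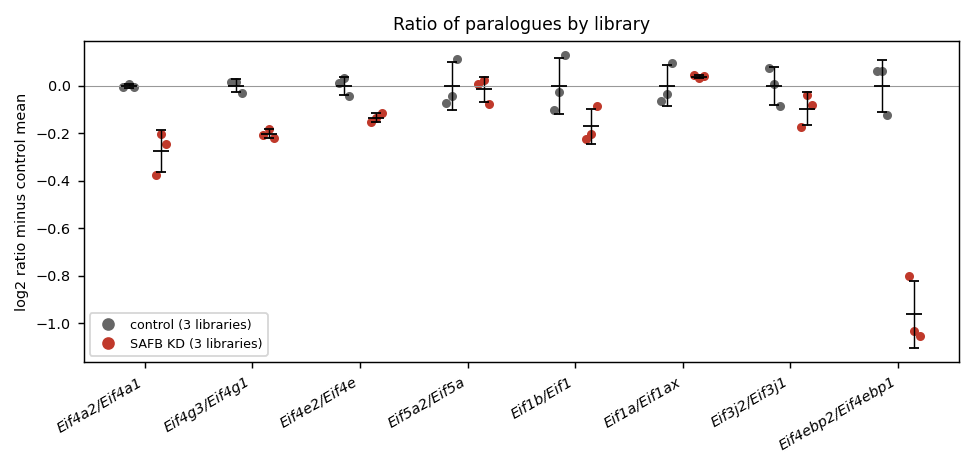
Log2 ratio of the CPM of paralogous genes, minus the mean of the 3 controls (y axis), for 8 pairs (x axis) in libraries of control (grey points) and of SAFB KD (red points), with each group's mean and SD. The ratio of Eif4ebp2 to Eif4ebp1 fell most, by 0.96, and those of Eif4a2 to Eif4a1, Eif4g3 to Eif4g1 and Eif4e2 to Eif4e fell without overlap between groups.

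The genes for eIF6, eIF5B and eIF5A were also called higher. Eif6 (ENSMUSG00000027613, chromosome 2, 155819832 to 155826925, minus strand), for the protein that keeps the large subunit apart from the small one until it is released, had 88.1, 85.3 and 87.6 CPM in control 1 to 3 and 115, 117 and 119.7 CPM in SAFB KD 1 to 3 and was higher with no overlap (log2 fold change 0.43, SE 0.034, adjusted p = 7.21e-14, edgeR quasi-likelihood test). Eif5b, for the GTPase that joins the subunits, had 292, 299.7 and 312 CPM in control 1 to 3 and 335, 317 and 309 CPM in SAFB KD 1 to 3, which overlapped. It was called by edgeR (log2 fold change 0.09, SE 0.032, adjusted p = 0.0244), but not by DESeq2 (adjusted p = 0.0553), nor without control 1 (0.06, adjusted p = 0.142), control 2 (0.08, adjusted p = 0.155) or SAFB KD 1 (0.05, adjusted p = 0.225). The hypusine-bearing factor eIF5A helps ribosomes over difficult peptide bonds and is made from a pair of genes. Eif5a had 842, 824 and 810.2 CPM in control 1 to 3 and 978, 964 and 1001 CPM in SAFB KD 1 to 3 and Eif5a2 had 27.5, 27.5 and 30.1 CPM in control 1 to 3 and 33.7, 33.6 and 32.6 CPM in SAFB KD 1 to 3. Both rose with no overlap, by 0.25 and 0.23 on the log2 scale (adjusted p = 1.08e-09 and 0.000244, edgeR quasi-likelihood test), and their log2 ratio moved by -0.01 (exact permutation test, p = 0.8).

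Among the elongation factors, Eef1a1 was the most abundant member per length, at 2973 RPKM in control and 3201 in SAFB KD. It had 7794, 7444 and 6997 CPM in control 1 to 3 and 7723, 8041 and 8176 CPM in SAFB KD 1 to 3, so control 1 overlapped the SAFB KD range. It was called higher (log2 fold change 0.11, SE 0.029, adjusted p = 0.0024, edgeR quasi-likelihood test), but without control 3 the log2 fold change was 0.05 (adjusted p = 0.124). At least 98% identity to other annotated sequences covers 79.4% of its transcript. Its muscle and brain paralogue Eef1a2 had 34 reads in all and no call (log2 fold change 0.01, SE 0.70, adjusted p = 0.995). All 4 genes grouped under eEF1B rose. Those of the exchange factor proper did so by 0.15 to 0.19, with Eef1b2 at 0.16, Eef1d at 0.19 and Eef1g at 0.15, and none overlapped between the groups. For Eef1g, 72% of the transcript is covered by the pseudogene Gm4366, whose own count did not pass the test (-0.12, adjusted p = 0.232).

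Eef1e1 (ENSMUSG00000001707, chromosome 13, 38644207 to 38659058, minus strand) had the largest rise among the members called. Its product is named for similarity to these factors but is known as a scaffold protein of the multi-tRNA synthetase complex. It had 56.2, 50.1 and 51.9 CPM in control 1 to 3 and 87.2, 83.0 and 83.5 CPM in SAFB KD 1 to 3. The lowest SAFB KD library was thus well above the highest control, a 1.60-fold difference (log2 fold change 0.68, SE 0.041, adjusted p = 3.27e-17, edgeR quasi-likelihood test). Eef2, for the translocase, had 3035, 3075 and 2979 CPM in control 1 to 3 and 3424, 3548 and 3474 CPM in SAFB KD 1 to 3 and rose with no overlap (log2 fold change 0.20, SE 0.026, adjusted p = 2.89e-08).

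Of 6 genes for enzymes that modify the elongation factors, 2 rose (33.3%) and 4 were not called. The share that rose was near the 35.9% of coding genes at 10 CPM or more. Eef2k (ENSMUSG00000035064, chromosome 7, 120842831 to 120907450, plus strand), for the kinase that phosphorylates eEF2 and slows elongation, had 18.8, 19.7 and 19.1 CPM in control 1 to 3 and 24.7, 24.7 and 26.5 CPM in SAFB KD 1 to 3. It was higher in every SAFB KD library (log2 fold change 0.40, SE 0.058, adjusted p = 2.24e-07, edgeR quasi-likelihood test). Eef2kmt (ENSMUSG00000022544, chromosome 16, 5244152 to 5255983, minus strand), for a methyltransferase of eEF2, had 12.6, 10.9 and 11.7 CPM in control 1 to 3 and 14.9, 15.3 and 14.6 CPM in SAFB KD 1 to 3 and did not overlap either (log2 fold change 0.34, SE 0.071, adjusted p = 0.000119). Of the eEF1A methyltransferase genes, Eef1akmt1 had a log2 fold change of 0.04, Eef1akmt2 of 0.08, Eef1akmt3 of -0.74 (97 reads in all) and Eef1akmt4 of 0.20, with adjusted p between 0.155 and 0.722.

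Other genes of the translation pathway were taken from a list of 54. Ddx3y was below the read minimum, and Gcn1 was missed because the annotation names it Gcn1l1. The other 52 were tested. Of these, 23 were higher and 10 lower (44.2% and 19.2%), with a median log2 fold change of 0.11, beside 21.4% higher and 20.1% lower among all genes tested and 35.9% and 29.9% among coding genes at 10 CPM or more. The share that was lower was thus near that of all genes, and the small classes below are counts to be read against the same shares. Among 8 genes for the eIF2 kinases and the phosphatase branch, 3 were higher and 3 lower. Ppp1r15a, for the stress-induced subunit that directs dephosphorylation of eIF2, had 26.6, 25.2 and 27.6 CPM in control 1 to 3 and 49.1, 51.9 and 52.9 CPM in SAFB KD 1 to 3 and was 1.94-fold higher with no overlap (log2 fold change 0.96, SE 0.049, adjusted p = 2.4e-19, edgeR quasi-likelihood test). Atf4, a transcription factor whose translation increases when eIF2 is phosphorylated, rose 1.45-fold (log2 fold change 0.54, SE 0.029, adjusted p = 1.12e-18), and Eif2ak3, for the eIF2 kinase PERK of the endoplasmic reticulum, fell 1.41-fold (log2 fold change -0.50, SE 0.052, adjusted p = 2.36e-10). Among 13 genes of the mTOR and MAPK control of eIF4E, 2 were higher and 5 lower. Pdcd4, an inhibitor of eIF4A, fell by 0.55 on the log2 scale. Rps6 and Rheb, for a ribosomal protein and the GTPase that activates mTOR, rose by 0.33 and 0.29. The others called lower were Mlst8 (-0.44), Mknk2 (-0.32), Rptor (-0.26) and Tsc1 (-0.15).

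Of 5 genes for poly(A)-binding proteins and their partners, 2 were higher and 1 lower. Paip2b, for an inhibitor of the poly(A)-binding protein, rose by 0.57 and Pabpc4 by 0.10, and Pabpc1 fell by 0.09. Of 6 termination and recycling genes, 4 were higher and 0 lower, with Etf1 and Gspt1 for the release factors at 0.30 and 0.14 and Abce1 for the recycling ATPase at 0.28. Of 8 genes for enzymes that make hypusine on eIF5A or diphthamide on eEF2, 3 were higher and 0 lower. Dhps, for the first hypusine enzyme, was the highest of these 3 at 0.54, followed by Dph5 at 0.24 and Dph6 at 0.15. Of 6 helicase and reinitiation genes 5 were higher, with Mcts2 at 0.75, Denr at 0.37 and Ddx3x at 0.25. The 5 include Eif4a3 (0.10), which was left out of the members for its place in the exon junction complex. The study lists Mcts2 with H13 among mouse pairs in which the pseudogene rose and its host gene fell in SAFB KD. Of 6 mitochondrial factors 4 were higher and 1 lower, with Tufm at 0.33, Gfm2 at 0.40 and Gfm1 at -0.23. All of the tested genes named from this list passed the edgeR quasi-likelihood test, with adjusted p of at most 0.0173.

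Members were also described by the gene itself. Their median exonic length was 3575 bases, and that of tested coding genes was 4368, with genomic spans of 15.9 and 23.6 kb. Across genes, exonic length and log2 fold change had a Spearman correlation of -0.10 in the 60 members and -0.18 in 13478 coding genes, as a description, since genes are not independent. Coding GC content was 50.7% in the members and 52.8% in coding genes. The members' mean level had a median of 145 CPM, against 24.7 CPM in coding genes, and within the members it had a correlation of -0.06 with log2 fold change.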

How the data were processed

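Poly(A)+ RNA of 3 control and 3 triple KD libraries was analysed, and groups and replicate numbers came from the sample titles. The deposited values were counts, whole numbers of reads per gene with no scaling, 1 library per file. The authors trimmed the reads before alignment, for which STAR 2.7.9a was run in more than 1 pass on GRCm38, and counted reads by gene. The study's methods describe reverse-stranded gene counts, and it is inferred that the deposited column holds these. The submitters' processing notes also name mm10 and deepTools 3.5.1. Reads that fit several gene copies equally well, or overlap several genes on the same strand, are not counted in this way.

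Identifiers were matched to GENCODE M21 (GRCm38; 54495 of 54532). Genes with at least 10 reads over the 6 libraries (19452) were normalized by TMM and tested with edgeR 4.0.16 (quasi-likelihood) in R 4.3.3, with Benjamini-Hochberg adjustment and a threshold of 0.05, and glmTreat tested for changes beyond a log2 value of 1. CPM were computed from the counts with TMM scaling, and RPKM divided them by the exonic length in kb. The SE is approximate, taken as the log2 fold change over the root of the quasi-likelihood F. Scripts were tested on simulated data. Alternatives were DESeq2 1.42.0, limma-voom 3.58.1, other scalings, filters, a replicate block and each library left out.

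The members and gene lists were chosen with earlier results of these data known. Values in every library were given for members called with a log2 fold change of at least 0.3 in size and for fixed paralogue pairs with a mean of at least 1 CPM. Those of Eif2b1, Eif2b5, Eif3f, Eif4g2, Eif5, Eif5b and Eef2 were added after their values were seen. Of the other translation genes, up to 3 per class with the smallest adjusted p were named. Eif4a3 and the remaining genes called lower in the mTOR and MAPK class were added after their values were seen. Copies were found with BLAST+ 2.17.0 (transcripts, at least 98% identity over at least 100 bases in the same orientation). Motifs were counted in Python 3.11.15, and figures were drawn with matplotlib 3.10.9.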

Additional observations from a re-analysis of the deposited data

How the results depend on the processing

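Across the 13 alternatives, 41 to 44 members were higher and 3 to 4 lower, 0 were beyond 2-fold, and the median log2 fold change of the members ranged from 0.17 to 0.19. Leaving out each library in turn gave 41 to 43 higher, 3 to 4 lower and medians of 0.17 to 0.19. Of the 46 members called, 43 kept their call and direction in all 13. The exceptions were Eef1a1, Eif3f and Eif5b, and none reversed. Eif2a (lower, 5 alternatives) and Eif4e (higher, limma-voom) were gained. No scaling moved the median of all genes by more than 0.02.

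Controls and SAFB KD libraries with the same number did not deviate together (correlations of -0.0051, -0.0091 and -0.017), so the numbers were not taken as pairs. With the replicate block 43 members were higher and 4 lower, as Eif2a was then called (-0.08, adjusted p = 0.0401, edgeR).

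The 3 calls that some alternatives lost had log2 fold changes of 0.09 to 0.11. Depth limits Eef1a2, Eif4ebp3 and Eef1akmt3 (34, 42 and 97 reads), and protein levels and translation rates were not analysed here.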

Other observations

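Several translation factor genes carry other genes in their introns, many of them small nucleolar RNAs. In all, 35 members overlapped at least 1 other annotated gene (56 pairs), and 9 tested genes lay within a member's intron on the same strand. None of the 9 was called. They were sparse, with control means from 0.036 to 1.39 CPM. Snora41 within Eef1b2 had the highest level, at 1.39 CPM in control and 1.495 in SAFB KD (log2 fold change 0.13, adjusted p = 0.666, edgeR quasi-likelihood test). The lowest adjusted p was 0.0771, for Gm45047 within Eef2k (0.145 CPM in control and 0.030 in SAFB KD), and next came 6720482G16Rik within Eif2a (0.099 and 0.014 CPM, adjusted p = 0.0810).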
